A study of Homo sapiens with 4 samples.

Results

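The nuclear genes of respiratory complexes II to V were followed in Raji cells, an established Burkitt lymphoma line that carries Epstein-Barr virus. The members are 46 gene symbols for subunits of complexes II, III, IV and V, for cytochrome c, and for factors that assemble complex IV. A member was measured by every probe set whose platform annotation gives its symbol alone, and its brightest probe set stood for the gene. This gave 43 members with 95 probe sets, of 19775 genes with such a probe set on the arrays. No such probe set was found for SDHB, UQCRFS1 and UQCRH. The 15 ATP5 genes were matched through their newer names, for example ATP5F1A for ATP5A1. RNA came from 2 clones of the same line: 1 with DLEU1, a long non-coding RNA gene, downregulated by TALENs (engineered proteins that cut DNA at a target sequence), and 1 wild-type control. Each clone was hybridised to 2 arrays (Affymetrix HG-U133 Plus 2.0), and all cells were grown in RPMI medium with serum. The labels carry the same note on TALEN treatment for all 4 arrays, the control arrays included. Each genotype was thus 1 clone, and the kind of duplicate is not given in the sources used here, so each p-value reflects nothing but how far these 4 arrays scatter, possibly for technical reasons.

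The respiratory chain passes electrons from nutrients to oxygen in the inner mitochondrial membrane and uses the energy to pump protons. Complex II takes electrons from succinate, complex III passes them from ubiquinol to cytochrome c, complex IV hands them from cytochrome c to oxygen, and complex V, the ATP synthase, lets protons flow back to make ATP. Most subunits are encoded in the nucleus and are made together with a small set encoded in mitochondrial DNA, and proliferating B cells are known to use this machinery heavily. NRF-1, a transcription factor named for its role in nuclear genes of respiration, is known to bind GC-rich sites near the start of many of them.

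Promoters are shown for 4 members whose brightest probe set was higher in the DLEU1-downregulated clone. Of these, 3 hold an exact match to the NRF-1 pattern given below, and CYCS, the gene of cytochrome c, holds none. Each run covers 250 bases before to 50 bases after the gene's start in RefSeq (GRCh38.p14), read 5′ to 3′ along the gene. Capitals mark each match to GCGCA, any base, then GCGC, or its reverse complement. Looser forms of this site were not searched for, so a promoter without capitals may still hold one.
SDHA (chr5:218070-218369, plus strand): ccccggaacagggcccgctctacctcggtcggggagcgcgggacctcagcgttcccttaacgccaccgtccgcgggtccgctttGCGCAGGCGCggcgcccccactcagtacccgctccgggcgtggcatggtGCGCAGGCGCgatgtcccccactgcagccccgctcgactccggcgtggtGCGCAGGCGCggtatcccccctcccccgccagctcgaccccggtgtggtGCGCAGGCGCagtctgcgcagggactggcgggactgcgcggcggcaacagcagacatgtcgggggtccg
UQCRC1 (chr3:48609597-48609896, minus strand): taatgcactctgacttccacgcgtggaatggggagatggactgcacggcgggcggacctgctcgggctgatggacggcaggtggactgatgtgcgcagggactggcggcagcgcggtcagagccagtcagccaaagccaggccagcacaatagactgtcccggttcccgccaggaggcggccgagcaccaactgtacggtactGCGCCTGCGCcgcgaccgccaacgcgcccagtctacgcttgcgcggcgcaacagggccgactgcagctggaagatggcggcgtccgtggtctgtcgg
UQCR11 (chr19:1605413-1605712, minus strand): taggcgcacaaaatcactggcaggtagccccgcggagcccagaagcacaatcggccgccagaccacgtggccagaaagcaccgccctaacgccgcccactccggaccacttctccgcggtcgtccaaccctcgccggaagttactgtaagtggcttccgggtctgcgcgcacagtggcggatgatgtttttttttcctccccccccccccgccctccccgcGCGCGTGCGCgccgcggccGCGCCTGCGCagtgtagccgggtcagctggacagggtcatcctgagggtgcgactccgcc
CYCS (chr7:25125211-25125510, minus strand): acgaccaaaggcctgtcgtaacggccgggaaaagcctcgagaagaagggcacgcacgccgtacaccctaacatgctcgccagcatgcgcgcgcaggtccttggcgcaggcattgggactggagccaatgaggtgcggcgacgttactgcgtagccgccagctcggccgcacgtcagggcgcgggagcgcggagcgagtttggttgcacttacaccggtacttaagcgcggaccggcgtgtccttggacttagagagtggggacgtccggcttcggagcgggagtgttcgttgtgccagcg
The SDHA promoter held 4 matches, which begin 166, 117, 68 and 19 bases before the start and so lie 49 bases apart. The UQCRC1 promoter held 1, which begins 47 bases before the start, and the UQCR11 promoter held 2, at 29 and 10 bases. RefSeq promoters were found for 33 of the 43 members, and 9 of these 33 (27.3%) held a match, against 6.98% of 27305 genes of all kinds and 9.66% of 15842 protein-coding genes with a promoter in the same table. The mean GC content was 60.3% for the members' promoters and 60.9% for those of protein-coding genes. Of 12 members with a promoter that were higher in the downregulated clone, 3 held a match, and of the other 21 members 6 did (ATP5C1, ATP5I, ATP5O, COX17, SDHD and UQCR10). A match describes the letters only and was not tested for binding.

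DLEU1 itself was lower after downregulation. As deposited it measured 1363 and 1024 in the control clone and 524 and 617 in the downregulated clone, with no overlap. The log2 change was -1.38 ± 0.07 (SE) after quantile normalization (limma, adjusted p = 2.98e-06), and an exact permutation test (two-sided) cannot go below p = 0.333 with 4 arrays. The deposited arrays shared no common level. The 2% trimmed mean intensity was 131 to 163 in the control clone against 172 to 197 in the downregulated clone, and the upper end of the range differed more than the middle. The median log2 change over all tested genes was 0.19 as deposited, and 0.36 over the brightest 20% of them, which hold 38 of the 42 tested members. After quantile normalization these medians were -0.01 and 0.01. Changes below are therefore given after quantile normalization, which sets them against all probe sets of like rank, with the value as deposited beside them where it alters a call. Of 6 B-cell markers 5 were measured, at 584 to 8376 on every array as deposited. Of these 5, 4 were lower after quantile normalization and limma called 0 as deposited (1 lower at an unadjusted p under 0.05). Markers of T cells, myeloid cells, fibroblasts and epithelium (17 genes) read at most 121 on any array as deposited, with none at 0. Of these, 1 fibroblast gene was lower on both scales. The B-cell markers summed as deposited were 12271 to 14595 in the control clone and 13544 to 15406 in the downregulated clone. These sums carry the unequal level of the arrays, and after quantile normalization 0 of the 5 markers had a log2 change above 0. The part of these markers in the results was not tested. In such bulk RNA, fewer cells and less RNA per cell cannot be told apart.

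Respiratory genes of complexes II to V changed little, and most that passed the test were higher in the downregulated clone. Of 42 tested members, 15 were higher and 2 were lower after quantile normalization, and 25 did not pass. All 15 rises lay between 1.09-fold and 1.44-fold. The largest were SURF1 and SCO2, which assemble complex IV, followed by the ATP synthase genes ATP5E, ATP5G2 and ATP5H and by CYCS. The share of members called higher was 35.7%, against 20.6% of all tested genes and 33.5% of the brightest 20%. The share called lower was 4.76%, against 20.6% of all tested genes and 32.5% of the brightest 20%. The median log2 change of the members was 0.11, and 33 of the 42 lay above 0. As deposited, 16 members were higher and limma called 0 lower. The shares higher and lower on that scale were 20.3% and 5.74% of all tested genes, and 32.9% and 3.35% of the brightest 20%. Of the 15 rises, 14 were called on both scales. The shares of all tested genes and of the brightest 20% on each scale are the background for every list count below. How often the clones' arrays do not overlap over all genes was not computed. Separation named for a gene below thus has no background. In each list below where limma called 0 lower, 0 were also lower at an unadjusted p under 0.05. With arrays set to a common median, 39 of 42 members were called higher. Without the intensity trend in eBayes, which lets bright probe sets share their small spread, only SCO2 was. Shares over all genes were not computed under either setting, so these counts have no background beside them.

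**Figure D1:**
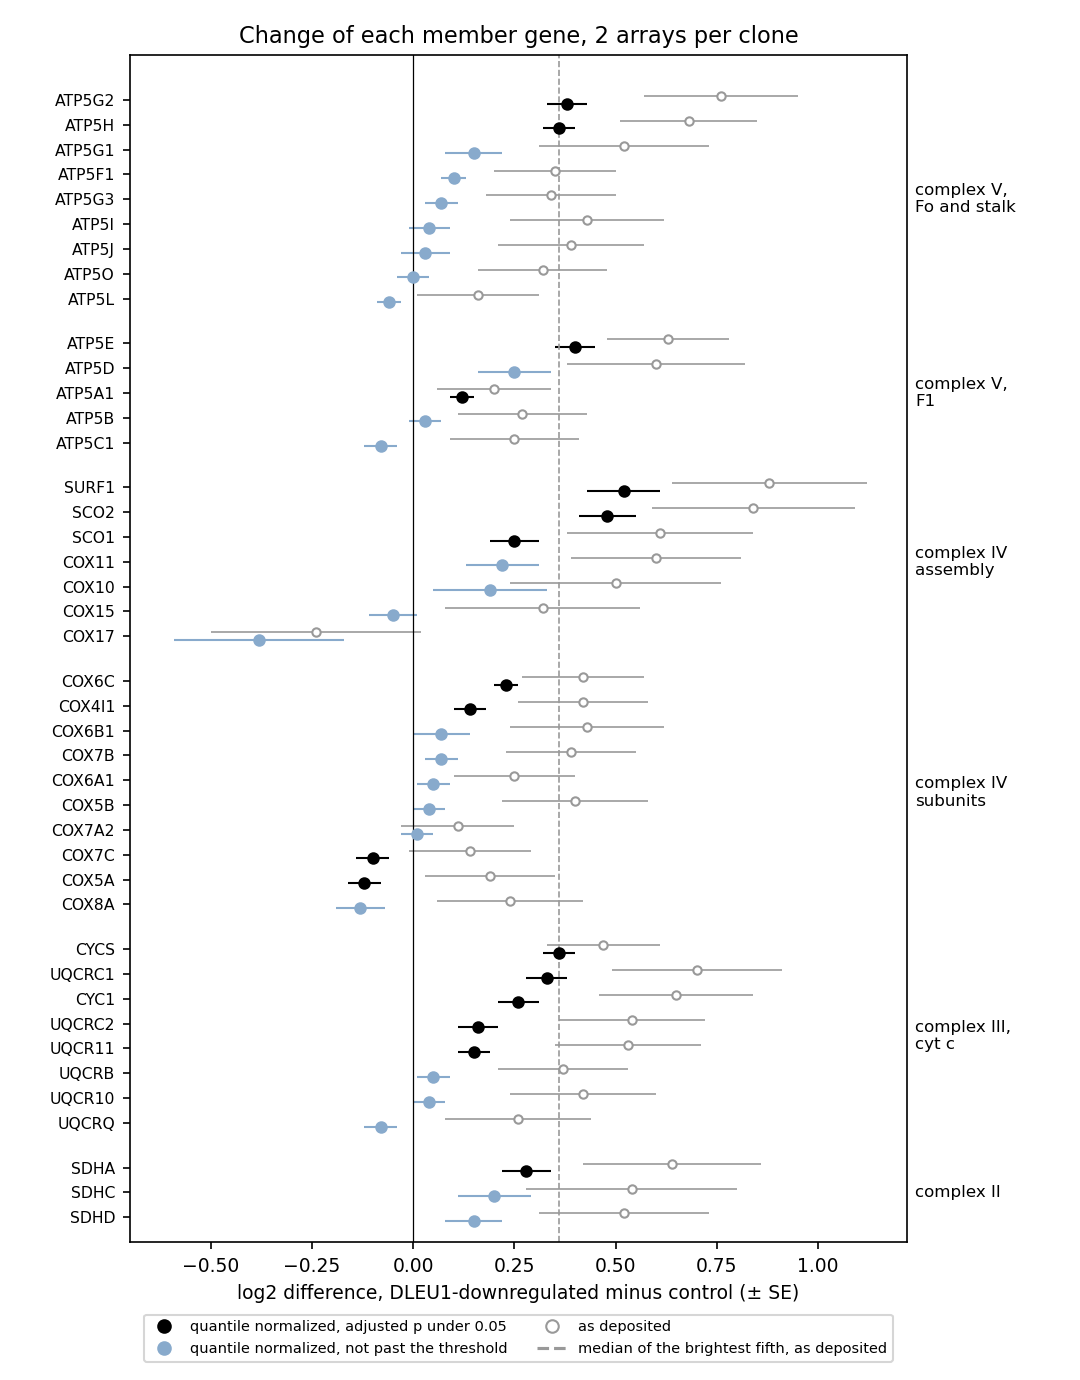
The log2 difference between the clones (x axis, DLEU1-downregulated minus control) is plotted for the 42 tested members, grouped by complex, with bars for the standard error of the fit on 2 arrays per clone. Filled points after quantile normalization lie between -0.38 and 0.52, and open points as deposited are shifted to the right, around the dashed median of 0.36 for the brightest 20% of genes.

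Complex II, the succinate dehydrogenase, was represented by 3 genes, of which 1 rose. SDHA, the flavoprotein that oxidises succinate, read 1455 and 1607 in the control clone against 1887 and 1823 in the downregulated clone after quantile normalization. The downregulated arrays were both above the controls, with a log2 change of 0.28 ± 0.06 (SE) and limma adjusted p = 0.00847. This probe set carries the suffix _x_at, which marks probes that may also bind related transcripts, and was the only SDHA probe set used here. SDHA did not pass without replicate 1 of the downregulated clone (adjusted p = 0.0786). The membrane anchors did not pass: SDHC had a log2 change of 0.20 (adjusted p = 0.105) and SDHD of 0.15 (adjusted p = 0.130). Their groups did not overlap, but the share of all genes with such separation was not computed. SDHC has 7 probe sets that go different ways. Its second brightest, also of suffix _x_at, rose by 0.38 (309 and 256 against 374 and 368, adjusted p = 0.0231), while a dimmer one fell by 0.56 (152 and 173 against 110 and 100, adjusted p = 0.0110) and did not pass as deposited (-0.31, adjusted p = 0.424). The list's median was 0.20, and 0.54 as deposited.

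Complex III with cytochrome c had the largest share of rises among the 6 lists of members. Of 8 tested genes 5 rose, limma called 0 lower, and the median log2 change was 0.15. The share that rose was 62.5%, against 20.6% of all tested genes and 33.5% of the brightest 20%. UQCRC1, a core subunit, read 1686 and 1797 in the control clone against 2231 and 2168 in the downregulated clone. It rose by 0.33 ± 0.05 (adjusted p = 0.00147). CYC1, a haem-bearing cytochrome of the complex, read 3052 and 2855 against 3578 and 3500 and rose by 0.26 ± 0.05 (adjusted p = 0.00333). In both genes the lower downregulated array lay above the higher control array on either scale. Smaller rises were measured for the second core subunit UQCRC2 (0.16, adjusted p = 0.0338) and for the small subunit UQCR11 (0.15, adjusted p = 0.0211). UQCRC2 did not pass without control replicate 1 (adjusted p = 0.0525), control replicate 2 (0.0970) or replicate 1 of the downregulated clone (0.252), and UQCR11 did not pass without replicate 1 (0.118) or 2 (0.0941) of the downregulated clone. UQCR11 also missed with its probe sets averaged (adjusted p = 0.0540), and both missed without a filter on dim probe sets (UQCRC2 0.0914, UQCR11 0.0551). The small subunits UQCRB (0.05), UQCR10 (0.04) and UQCRQ (-0.08), which help hold the complex together or bind ubiquinone, did not pass (adjusted p from 0.174 to 0.466). Dimmer probe sets of UQCRB and UQCR10 rose, by 0.30 (414 and 410 against 513 and 511, adjusted p = 0.0148) and by 0.41 (266 and 256 against 344 and 359, adjusted p = 0.00786). The UQCRB probe set did not pass as deposited (0.64, adjusted p = 0.0543).

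CYCS, whose protein shuttles electrons between complexes III and IV and starts caspase activation when it leaves the mitochondrion, had probe sets that all rose but by unlike amounts. Its brightest probe set read 10398 and 9824 in the control clone against 12702 and 13170 in the downregulated clone, a log2 change of 0.36 ± 0.04 (1.28-fold, adjusted p = 1.64e-04), which was 0.15 with a common trimmed mean (adjusted p = 0.135). A second probe set read 264 and 243 against 754 and 744, which is 1.51 on the log2 scale (adjusted p = 4.50e-06). The remaining probe set read 128 and 144 against 421 and 401, which is 1.49 (adjusted p = 1.44e-05). All 3 probe sets put both downregulated arrays above both control arrays, but the dim ones rose far more than the bright one. These were the largest rises of any tested probe set of the members. The probes' positions in the CYCS transcripts are not given in the files, and why they differ was not tested. CYCS lies on chromosome 7, where the median over 636 tested genes was 0.30 on the log2 scale, and the part of this shift in the rise was not tested.

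Of 10 complex IV subunits, 2 rose and 2 fell, and the median log2 change was 0.04. COX6C, a small membrane subunit, read 8694 and 8588 in the control clone against 10083 and 10217 in the downregulated clone and rose by 0.23 ± 0.03 (adjusted p = 7.68e-04), but had 0.09 with arrays set to a common trimmed mean (adjusted p = 0.384). COX4I1, the regulatory subunit common to most tissues, rose by 0.14 in its _x_at probe set (adjusted p = 0.0230), but its next probe set had 0.01 (adjusted p = 0.843). COX4I1 also missed without control replicate 1 (adjusted p = 0.0916) and without replicate 1 (0.139) or 2 (0.0572) of the downregulated clone. With a common trimmed mean it had 0.09 (adjusted p = 0.435), and without a filter on dim probe sets its adjusted p was 0.0825. COX5A, which is bound to COX4I1 on the matrix side, read 7793 and 7651 against 7206 and 7004 and fell by 0.12 (adjusted p = 0.0334). That direction turned as deposited, where COX5A had a log2 change of 0.19 (adjusted p = 0.440), and its call was lost without control replicate 1 (0.110) and without replicate 1 (0.0792) or 2 (0.149) of the downregulated clone. COX7C fell by 0.10 in its brightest probe set, of suffix _x_at (8715 and 8955 against 8168 and 8264, adjusted p = 0.0484), and had 0.14 as deposited (adjusted p = 0.570). It did not pass without control replicate 2 (adjusted p = 0.151) or without replicate 1 (0.190) or 2 (0.120) of the downregulated clone. The COX7C probe set without that suffix went the other way, with 1418 and 1469 against 1914 and 1931 and a rise of 0.41 (adjusted p = 3.90e-04). The remaining subunits COX5B (0.04), COX6A1 (0.05), COX6B1 (0.07), COX7A2 (0.01), COX7B (0.07) and COX8A (-0.13) did not pass, with adjusted p from 0.121 to 0.858. A dim second probe set of COX7B read 52.1 and 31.2 against 104 and 84.5 and rose by 0.95 (adjusted p = 0.00832). As deposited COX6C and COX4I1 were again the only rises among these 10 genes, and the median was 0.32.

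Of 7 factors that assemble complex IV, 3 rose and limma called 0 lower, and the median log2 change was 0.22. The other 4 did not pass. SURF1, an early assembly factor whose loss causes Leigh syndrome, read 745 and 891 in the control clone against 1138 and 1222 in the downregulated clone. It rose by 0.52 ± 0.09 (1.44-fold, adjusted p = 0.00180), the largest change of a brightest probe set among the members. A dim second SURF1 probe set had -0.09 (adjusted p = 0.731), and the mean of both did not pass (0.22, adjusted p = 0.0955). SCO2, a copper chaperone for the catalytic core, read 552 and 563 against 769 and 798 and rose by 0.48 ± 0.07 (adjusted p = 7.48e-04). Of the 17 called members, SCO2 alone kept its call under all 15 other settings of scale, filter, model, probe set and arrays left out, though its rise of 1.39-fold is under the stricter limit of 1.5-fold. Its partner SCO1 read 950 and 987 against 1159 and 1158 and rose by 0.25 (adjusted p = 0.0102). It did not pass with replicate 1 of the downregulated clone left out (adjusted p = 0.0695) or replicate 2 (adjusted p = 0.0635). COX11, which delivers copper to another site, had 0.22 and did not pass (adjusted p = 0.0852), although it passed as deposited (0.60, adjusted p = 0.0257). The dimmer COX11 probe sets went different ways. The one that passed fell by 0.61 (109 and 105 against 76.7 and 54.2, adjusted p = 0.0255) and did not pass as deposited (-0.41, adjusted p = 0.254). The dimmest had 0.68 (22.1 and 12.9 against 43.3 and 31.9, adjusted p = 0.0589). COX10 and COX15, which make haem A, had 0.19 (adjusted p = 0.333) and -0.05 (adjusted p = 0.548), and a dimmer COX15 probe set rose by 0.36 (adjusted p = 0.0327) but did not pass as deposited (0.64, adjusted p = 0.0578). COX17, the copper donor upstream of SCO1, was measured here only by a dim probe set that read 83.2 and 53.2 against 50.7 and 45.1 (log2 change -0.38, adjusted p = 0.213), but without control replicate 2 it was called lower (-0.65).

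**Figure D2:**
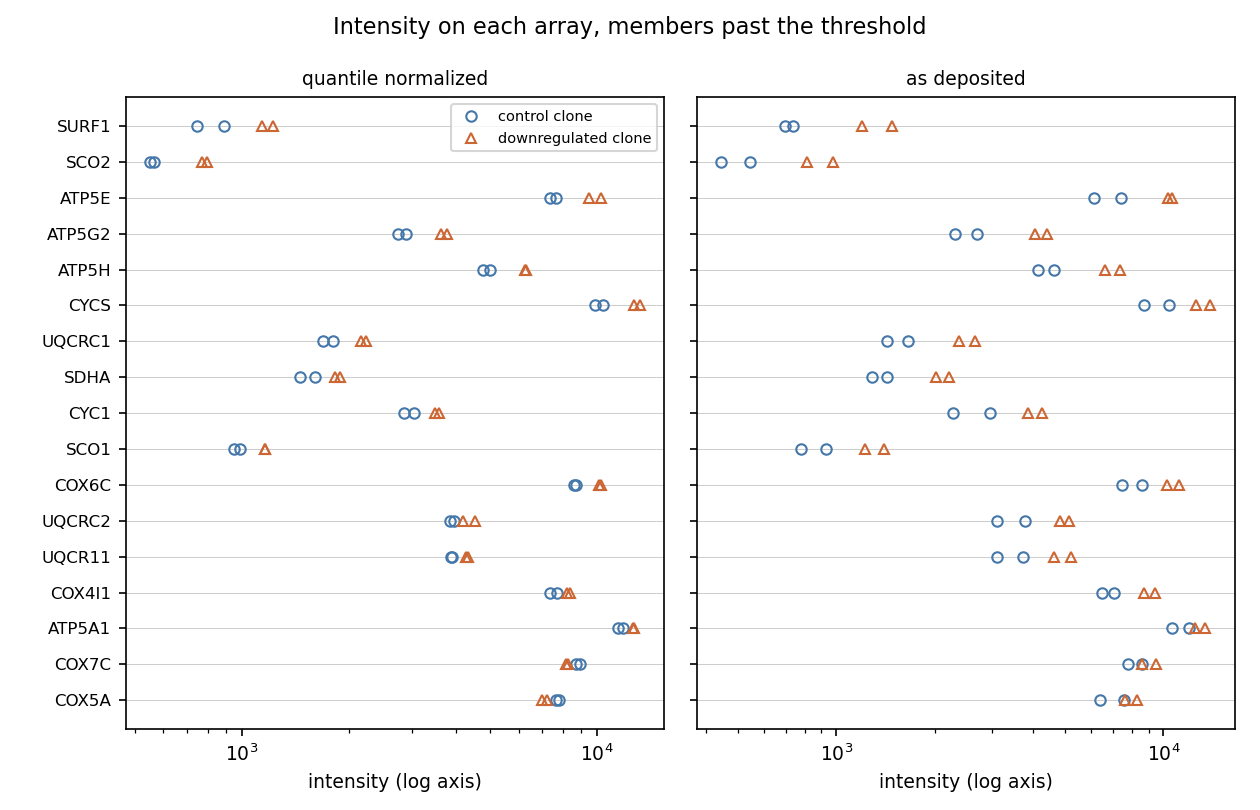
Intensities on a log axis are plotted for each array and each of the 17 members past the threshold, with circles for the control clone and triangles for the downregulated clone, after quantile normalization (left) and as deposited (right). On the left the 2 circles and 2 triangles of each gene are apart for all 17, and for COX5A and COX7C the triangles lie below. The 17 were picked by the test on these same values, so their separation on the left adds no evidence. On the right COX5A and COX7C have triangles near or above the circles.

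Complex V, the ATP synthase, was represented by 14 tested genes, of which 4 rose and limma called 0 lower, with a median log2 change of 0.09. In the F1 part, the catalytic head, ATP5E, the small epsilon subunit, read 7641 and 7338 in the control clone against 10266 and 9478 in the downregulated clone. It rose by 0.40 ± 0.05 (1.32-fold, adjusted p = 2.11e-04), and its dim second probe set rose by 0.77 (26.1 and 17 against 49.6 and 45.3, adjusted p = 0.0241). ATP5E lies on chromosome 20, where the median over 376 tested genes was 0.29 on the log2 scale, and the part of this shift in the rise was not tested. ATP5A1, the alpha subunit, rose by 0.12 (11811 and 11430 against 12669 and 12604, adjusted p = 0.0207), but did not pass as deposited (0.20, adjusted p = 0.333) and had -0.13 with arrays set to a common trimmed mean (adjusted p = 0.245). It also missed without control replicate 2 (adjusted p = 0.0703) and without replicate 1 (0.103) or 2 (0.0800) of the downregulated clone. ATP5B, the catalytic beta subunit, had 0.03 (adjusted p = 0.634) and ATP5C1, the central shaft, had -0.08 (adjusted p = 0.147). All 4 tested ATP5C1 probe sets lay between -0.14 and -0.07, and none passed. ATP5D, the delta subunit of the shaft's foot, had 0.25 and narrowly missed (1357 and 1638 against 1720 and 1834, adjusted p = 0.0505), while it passed as deposited (0.60, adjusted p = 0.0312). Its second probe set, of suffix _x_at, rose by 0.65 (448 and 507 against 777 and 741, adjusted p = 3.63e-04).

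The membrane part and stalk of complex V held 2 rises among 9 tested genes. ATP5H, the d subunit of the stalk that keeps the head from turning, read 4771 and 4998 in the control clone against 6267 and 6292 in the downregulated clone and rose by 0.36 ± 0.04 (adjusted p = 1.85e-04). ATP5G1, ATP5G2 and ATP5G3 are separate genes that encode the same mature subunit c, the protein of the rotating ring, behind different import signals. Of these, ATP5G2 read 2755 and 2900 against 3765 and 3629 and rose by 0.38 ± 0.05 (adjusted p = 3.27e-04). ATP5G1 had 0.15 (1951 and 2214 against 2382 and 2242, adjusted p = 0.120), and ATP5G3 had 0.07 (7911 and 7911 against 8136 and 8521, adjusted p = 0.172). In each of the 3 genes the downregulated arrays were above the control arrays, but the share of all genes with such separation was not computed. The dimmer ATP5G3 probe sets did pass, with rises of 0.27 (6798 and 6581 against 8119 and 7995, adjusted p = 5.93e-04) and 0.49 (adjusted p = 0.0199), so the gene's call depends on the probe set. The stalk genes ATP5F1 (0.10, adjusted p = 0.0597), ATP5J (0.03, adjusted p = 0.795) and ATP5O (0.00, adjusted p = 0.955) and the membrane subunits ATP5I (0.04, adjusted p = 0.536) and ATP5L (-0.06, adjusted p = 0.213) did not pass. A dimmer ATP5O probe set of suffix _x_at fell by 0.33 (adjusted p = 0.0252), against 0.02 as deposited. ATP5J2, another membrane subunit, was measured here only by a probe set too dim to be tested, at 3.92 and 3.89 against 12.2 and 11.2.

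Probe sets of the same gene disagreed often enough to bear on single calls. Of the 43 members, 28 had more than 1 probe set. Among 49 dimmer probe sets that were tested, 13 rose and 3 fell after quantile normalization, and over all 32768 tested probe sets 17.0% were higher and 16.7% lower. In 10 genes a dimmer probe set passed in a way that its brightest one did not (ATP5D, ATP5G3, ATP5O, COX11, COX15, COX7B, COX7C, SDHC, UQCR10 and UQCRB). With the mean of a gene's tested probe sets in place of the brightest, 19 members were higher and limma called 0 lower. Shares over all genes were not computed under that setting, so this count has no background beside it. Many of the members are known to have processed pseudogenes, whose transcripts a probe may also bind.

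**Figure D3:**
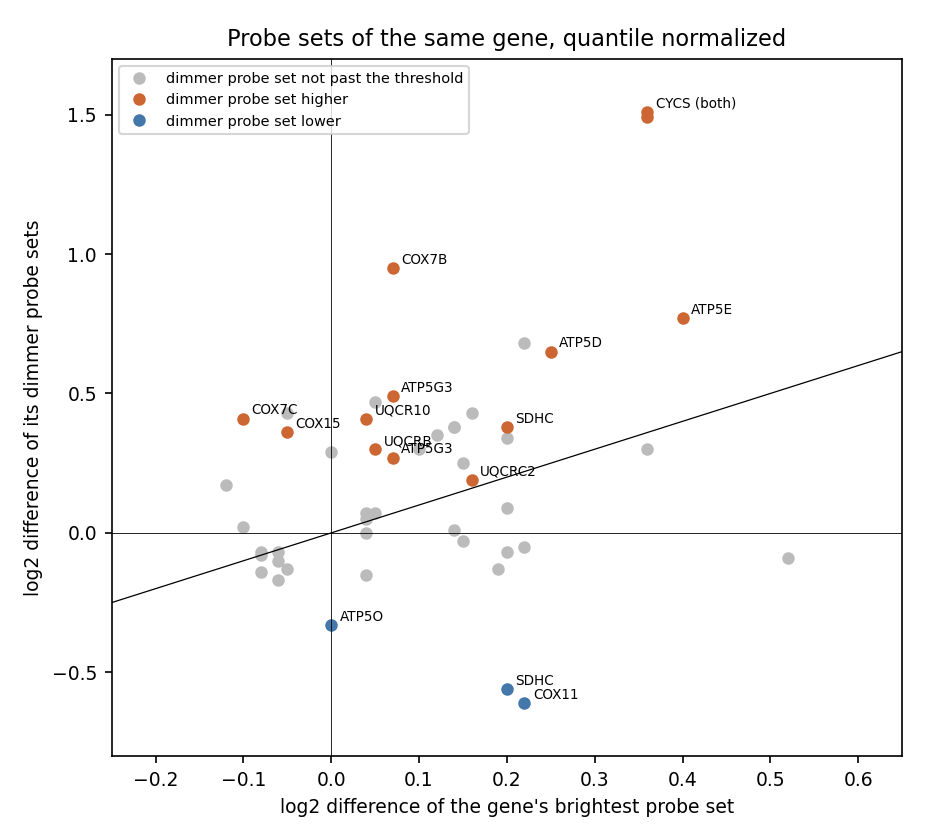
Each point is a dimmer tested probe set, with its log2 difference (y axis) against that of the brightest probe set of the same gene (x axis), after quantile normalization; the diagonal marks equal values and named points passed the threshold. Both dim CYCS probe sets sit at 1.51 and 1.49 against 0.36, and COX7C lies above 0 on the y axis and below 0 on the x axis.

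Other genes of the same machinery were taken from lists chosen by role. Shifts of whole chromosomes, given above for CYCS and ATP5E, were not looked at for the genes of these lists. After quantile normalization 20.6% of all tested genes were higher and 20.6% lower, and 33.5% and 32.5% of the brightest 20%. As deposited, 20.3% of all tested genes and 32.9% of the brightest 20% were higher. Of 7 measured mitochondrially encoded subunits, 6 were higher and limma called 0 lower after quantile normalization, and 3 were higher as deposited. MT-CO1, the catalytic subunit of complex IV, read 12916 and 12055 in the control clone against 18136 and 18199 in the downregulated clone and rose by 0.54 ± 0.04 (adjusted p = 1.43e-05). MT-ND2 of complex I rose by 0.61 (adjusted p = 3.80e-06) and MT-CO3 by 0.50 (adjusted p = 0.00110), all 3 on both scales. MT-CO2 rose by 0.21 (adjusted p = 6.56e-04) and did not pass as deposited (adjusted p = 0.225). Further assembly factors of complex IV went both ways, with 9 of 18 higher and 3 lower. COX16 (0.68, adjusted p = 7.63e-05), COA7 (0.69, adjusted p = 2.23e-04) and COX20 (0.56, adjusted p = 0.00141) rose, and COA5 fell by 0.66 (adjusted p = 3.62e-04), though not as deposited (adjusted p = 0.396).

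Assembly and accessory genes of complexes II, III and V ranged from -1.79 to 1.13. Of 17 genes, 6 were higher (35.3%) and 4 lower (23.5%), against 20.6% each way of all tested genes. ATPAF1, a chaperone that binds the beta subunit during assembly of the F1 head, read 344 and 357 in the control clone against 96 and 83.9 in the downregulated clone. It fell by 1.79 ± 0.12 (adjusted p = 9.53e-06), and by 1.52 as deposited (adjusted p = 2.74e-07). TMEM70, which is needed for ATP synthase assembly, rose by 0.60 (2205 and 2108 against 3321 and 3228, adjusted p = 3.03e-05). The complex III factors TTC19 (0.55, adjusted p = 9.74e-05) and LYRM7 (0.42, adjusted p = 6.42e-04) rose as well, on both scales. ATPAF1 has 2 probe sets, of which only the brightest is given here. Its client ATP5B had 0.03, and ATP5A1 rose by 0.12 but did not pass as deposited (0.20, adjusted p = 0.333). A link between these changes was not tested. Of 15 nuclear regulators and maintenance genes, 6 were higher (40%) and 3 lower (20%). The lower ones were TFAM (-0.19, adjusted p = 0.0232), TFB1M (-0.31, adjusted p = 0.00536) and YY1 (-0.27, adjusted p = 0.0245). As deposited these did not pass (adjusted p = 0.675, 0.913 and 0.77). NRF1, the gene of NRF-1, had -0.07 and did not pass (adjusted p = 0.693). PPARGC1B, a coactivator of respiratory genes, read 713 and 716 against 1345 and 1324 and rose by 0.89 ± 0.06 (adjusted p = 1.21e-05), and SSBP1, which coats single-stranded mitochondrial DNA, rose by 0.65 (adjusted p = 1.46e-05). POLRMT, the mitochondrial RNA polymerase (0.54, adjusted p = 0.00251), and POLG, the mitochondrial DNA polymerase (0.77, adjusted p = 0.00258), rose too.

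Tissue forms of complex IV subunits were at the low end. COX4I2, COX6A2, COX6B2, COX7A1, COX7B2 and COX8C, the lung, muscle and testis forms, read at most 38.2 on any array as deposited, and none of those tested passed. COX7A2L, which joins complexes III and IV, read 4250 and 4308 in the control clone against 3313 and 3238 in the downregulated clone and fell by 0.38 (adjusted p = 1.61e-04), but had -0.01 as deposited (adjusted p = 0.982). NDUFA4, now counted as a complex IV subunit, rose by 0.37 (4311 and 4304 against 5723 and 5456, adjusted p = 1.80e-04). For comparison, 16 of 33 complex I subunits were higher (48.5%) and 5 lower (15.2%), with a median of 0.08 and a range from -0.72 to 0.85. Of all tested genes 20.6% were called each way, and of the brightest 20% the shares were 33.5% higher and 32.5% lower. NDUFB2 (0.78), NDUFB10 (0.85), NDUFA8 (0.77) and NDUFA10 (0.65) had the smallest p-values there and rose. The members here ranged from -0.38 to 0.52 around a median of 0.11, and the difference between complex I and complexes II to V was not tested.

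**Figure D4:**
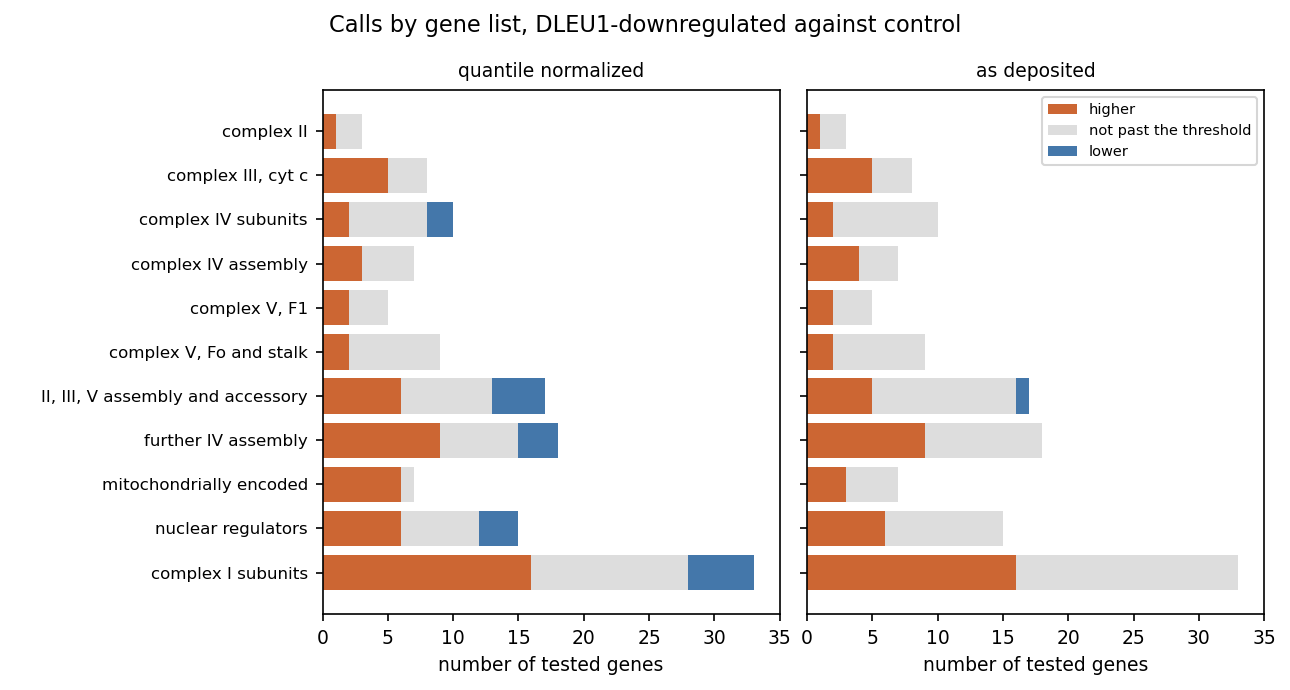
Stacked bars count the tested genes of each list that were higher (orange), lower (blue) or not past the threshold (grey), after quantile normalization (left) and as deposited (right). Complex III with cytochrome c has 5 of 8 genes higher on both sides, while the blue bars on the left are gone on the right except for 1 gene among the assembly and accessory genes.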

How the data were processed

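Expression was measured on 4 arrays, 2 per clone. The authors deposited 1 table of linear signal intensity per probe set. Per the submitters' processing notes it was made with MAS5, an algorithm that works array by array. Its version, target and detection calls are not given in the sources used here, so no call of presence was made, and the number of arrays limits the precision.

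Values were turned into log2(intensity + 16), quantile normalized, and fitted in limma 3.58.1 (R 4.3.3) with group as the only term and an intensity trend in eBayes. The fit used all 32768 probe sets that were neither control probe sets nor below the 40th percentile of mean log2 value. P-values were adjusted over all of them by Benjamini-Hochberg, with a threshold of 0.05. A gene was called through its brightest probe set with 1 symbol (13292 genes tested). Log2 changes understate the change of dim genes. The prior degrees of freedom were 6.74 after quantile normalization. As deposited they were infinite, so each p-value on that scale used the spread shared by probe sets of like brightness and not the gene's own. Of 41091 probe sets with 1 symbol, 41037 were matched to RefSeq by gene identifier.

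The members and lists were chosen with earlier results of these data known, and so was the choice of quantile normalization as the main scale. All members are named, and in each other list up to 4 genes of smallest p, with the complex IV isoforms, the lower regulators and NRF1 besides. Same-numbered arrays did not deviate together (correlation -0.01). The fit was also run on simulated data in which spread depended on intensity alone, as the eBayes trend assumes. That run cannot test whether the assumption holds for these arrays.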

Additional observations from a re-analysis of the deposited data

How the results depend on the processing

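As deposited, 16 members were higher and 0 lower, and the medians were 0.54 for complex II, 0.50 for complex III with cytochrome c, 0.32 for complex IV subunits, 0.60 for its assembly factors, 0.27 for F1 and 0.39 for Fo and stalk. COX5A and COX7C turned to 0.19 and 0.14, and of members not called, UQCRQ (0.26), COX8A (0.24), COX15 (0.32), ATP5C1 (0.25), ATP5L (0.16) and ATP5O (0.32) turned upward too. With a common trimmed mean 12 were higher and 0 lower, and the medians of complex IV subunits and F1 turned to -0.01 and -0.06, and ATP5A1 to -0.13; COX6A1 (-0.08), COX7A2 (-0.21) and ATP5B (-0.06), not called, turned as well. With a common median 39 were higher and 0 lower, the same 6 medians were 0.58, 0.55, 0.36, 0.64, 0.31 and 0.43, and UQCRQ (0.30), COX5A (0.23), COX7C (0.18), COX8A (0.29), COX15 (0.36), ATP5C1 (0.29), ATP5L (0.20) and ATP5O (0.36) turned upward again. The cause was not tested. Shares over all genes were computed only for the main setting and the values as deposited. All other counts of calls here and in the next paragraph therefore have no background beside them.

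Without a filter on dim probe sets 11 were higher and 0 lower, as UQCRC2, UQCR11, COX4I1, ATP5A1, COX5A and COX7C lost their calls. Without the trend 1 was higher and 0 lower. With the replicate block 16 were higher and 0 lower. At a threshold of 0.01, 10 were higher and 0 lower, and 0 and 0 with at least a 1.5-fold change. Without probe sets of suffix _x_at 14 were higher and 1 lower, COX4I1 lost its call, and COX7C turned to 0.41. With probe sets of a gene averaged, 19 were higher and 0 lower, the medians were 0.06 (complex II), 0.24 (complex III), 0.06 (complex IV subunits), 0.23 (F1) and 0.15 (Fo and stalk), and COX5A and COX7C turned to 0.02 and 0.11. Leaving out each array gave 9 to 16 higher, 9 of them without replicate 1 of the downregulated clone, and 0 to 2 lower. Calls gained by leaving out an array were SDHD (0.23, without control replicate 1), COX11 (0.35), ATP5D (0.39), ATP5G1 (0.24) and COX17 (-0.65, these without control replicate 2), and COX8A (-0.21, without replicate 2 of the downregulated clone). The medians then ranged from 0.12 to 0.18 for complex III and from 0.01 to 0.04 for complex IV subunits. Without the members on chromosomes 7 and 20, an alternative chosen after seeing the data, 13 were higher and 2 lower. Of 668 values of single members under the alternatives, 566 kept their call or stayed uncalled, the latter counted even where the sign turned. As given above, of the 17 called members SCO2 alone kept its call under all 15 other settings. The count of 566 also includes values that could not change. The alternative without chromosomes 7 and 20 reuses the main fit, as does the one without _x_at probe sets for members whose brightest probe set lacks that suffix. The stricter threshold and fold limit are not in the count. DLEU1 stayed between -1.43 and -0.99.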
